A study of Mus musculus with 32 samples.

Results

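The genes described here make cholesterol and long-chain fatty acids, or control their making, and their transcripts were followed in mouse presomitic mesoderm (PSM) cells kept in culture. They are 30 genes, taken by symbol from a table of raw read counts for 21886 genes. All 30 passed the filter for expressed genes, at least 1 CPM (a count scaled to library size) in at least 16 libraries, which 11768 genes passed. They fall into 6 enzymes of the mevalonate stretch, 11 enzymes from squalene to cholesterol, 4 regulators or carriers, and 9 genes of fatty acid synthesis and desaturation.

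PSM is the embryonic tissue that is cut into somites under the control of an oscillator, and the stated aim of the series was to find the components of that oscillator. The cells came from epiblast stem cells of a single reporter line, labelled AES0204 based Hes7-reporter, which carries luciferase under the control of the clock gene Hes7. The stem cells had been kept with Activin A, bFGF and the Wnt inhibitor IWR-1-endo, and were plated overnight with the kinase inhibitor Y27632 and without IWR-1-endo. All dishes then received the TGF-β receptor inhibitor SB431542 (10 µM), the BMP receptor inhibitor LDN193189 (250 nM), bFGF (20 ng/ml) and the GSK3 inhibitor CHIR99021 (10 µM). After 30 h the dose of CHIR99021 was lowered to 1 µM in otherwise the same medium. Separate sets of dishes were run: Ex5, with 16 dishes frozen between 165 and 425 min, and Ex4, with 16 dishes frozen between 155 and 405 min. Both sets had the same treatment, and what minute 0 stands for is not given in the sources used here. Each library comes from 1 dish at 1 time, so the spread behind every error below is the deviation of the libraries from a fitted line, and Ex5 cannot be told apart from its culture run and RNA preparation.

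Cholesterol is built from acetyl-CoA through mevalonate, farnesyl diphosphate and squalene, and fatty acids are built from acetyl-CoA through malonyl-CoA. Most genes of both pathways are targets of the SREBP transcription factors, which are held in the endoplasmic reticulum by INSIG proteins when sterols are plentiful and are released and cleaved when sterols are low. SREBP2, from Srebf2, acts mainly on sterol genes, and SREBP1, from Srebf1, acts more on fatty acid genes. In their promoters a sterol regulatory element often lies near a CCAAT box, which the factor NF-Y binds.

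Promoter windows from RefSeq (GRCm38.p6, 250 bases before to 50 after the start) were found for 23 of the 30 genes, some with more than 1 start. CCAAT, read on both strands so that ATTGG also counts, stood in a window of 20 of these 23 genes (87%), against 43.5% of tested genes with a window. The sterol regulatory element, searched as TCACNCCAC on both strands, stood in a window of 1 of the 23, Hmgcs1, against 1.46% of tested genes. Only exact matches within these windows were counted, so variant forms of the element, or sites farther away, would be missed. The GC box GGGCGG stood in 19 of 23 (82.6%), against 72% of tested genes. Each motif was counted on its own, also where matches of different motifs overlap. Below are 200 bases of 5 genes, ending before the RefSeq start or an earlier GENCODE start, for genes whose transcripts behaved differently. Hmgcs1 and Insig1 were among those that differed most between the courses at 165 min. Mvk and Nsdhl rose in both courses, and Elovl6, whose window held none of the 3 motifs, rose in Ex4. All 5 lie on the plus strand and read 5′ to 3′. Capitals mark CCAAT or its reverse complement ATTGG and, in Hmgcs1, the sterol regulatory element.
Hmgcs1, chr13:119690151-119690350: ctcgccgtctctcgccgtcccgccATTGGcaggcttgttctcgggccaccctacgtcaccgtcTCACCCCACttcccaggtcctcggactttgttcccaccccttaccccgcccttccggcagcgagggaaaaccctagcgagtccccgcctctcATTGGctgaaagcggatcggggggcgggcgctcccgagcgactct
Insig1, chr5:28071163-28071362: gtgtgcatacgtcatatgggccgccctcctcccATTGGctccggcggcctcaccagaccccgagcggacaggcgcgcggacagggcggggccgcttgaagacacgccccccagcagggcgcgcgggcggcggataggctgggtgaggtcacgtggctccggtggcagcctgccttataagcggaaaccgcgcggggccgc
Mvk, chr5:114444069-114444268: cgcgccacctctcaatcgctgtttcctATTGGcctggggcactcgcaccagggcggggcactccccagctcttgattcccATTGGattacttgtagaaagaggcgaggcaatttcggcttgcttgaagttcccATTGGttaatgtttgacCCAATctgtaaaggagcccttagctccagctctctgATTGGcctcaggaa
Nsdhl, chrX:72918321-72918520: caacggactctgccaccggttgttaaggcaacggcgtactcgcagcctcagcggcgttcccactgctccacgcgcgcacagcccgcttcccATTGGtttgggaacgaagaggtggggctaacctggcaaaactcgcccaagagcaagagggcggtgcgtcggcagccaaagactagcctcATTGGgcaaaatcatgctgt
Elovl6, chr3:129532155-129532354: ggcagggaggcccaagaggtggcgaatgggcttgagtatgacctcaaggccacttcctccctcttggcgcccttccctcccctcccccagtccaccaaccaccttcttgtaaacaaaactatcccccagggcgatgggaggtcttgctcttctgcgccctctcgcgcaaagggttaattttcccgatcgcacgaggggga

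Counts assigned to genes came to 16.1 to 28.6 M per Ex5 library and 19.3 to 29.5 M per Ex4 library. The cells expressed all 8 PSM markers examined, which summed to 3376 to 4063 CPM in Ex5 (median 3705) and 2782 to 3477 CPM in Ex4 (median 3202). Of 6 epiblast markers 3 passed the filter (Pou5f1, Sox2 and Cdh1), and the 6 summed to 56.2 to 149 CPM in Ex5 (median 98.2) and 98.5 to 217 CPM in Ex4 (median 153). Nanog, a marker of naive pluripotency, averaged 0.285 CPM and Fgf5, a marker of the epiblast, 0.103 CPM. Neural markers summed to 15.4 to 20.7 CPM in Ex5 and 19.5 to 25.3 CPM in Ex4. Endoderm markers stayed within 0.985 to 2.58 CPM in Ex5 and 1.27 to 2.43 CPM in Ex4, and lateral mesoderm markers within 3.01 to 6.78 CPM in Ex5 and 3.59 to 5.26 CPM in Ex4. Hes7 cycled with a common fitted period of 135 min, with its first peak at 237 min in Ex5 and at 213 min in Ex4.

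Per kilobase of exon, the 3 most abundant of the 30 transcripts were those of Scd2, Acly and Fasn. Averaged over the 32 libraries, the stearoyl-CoA desaturase Scd2 stood at 568 CPM per kb and its relative Scd1 at 100.4 CPM per kb. ATP citrate lyase (Acly), which supplies acetyl-CoA from citrate, stood at 229.8 CPM per kb, and fatty acid synthase (Fasn) at 218.5 CPM per kb. Hmgcs1, the cytosolic HMG-CoA synthase that opens the mevalonate stretch, led the sterol enzymes at 156 CPM per kb. It was followed by the lanosterol demethylase Cyp51 (80.0 CPM per kb) and the mevalonate diphosphate decarboxylase Mvd (72.7 CPM per kb). Srebf2 stood at 71.8 CPM per kb and Srebf1 at 27.3 CPM per kb. The lowest were the farnesyl diphosphate synthase Fdps (4.01 CPM per kb) and the acetyl-CoA synthetase Acss2 (1.40 CPM per kb). Fdps shares at least 95% identity over at least 300 bases with 5 other annotated genes, 4 of them processed pseudogenes, so its count is uncertain. The same holds for Idi1 (3 such genes, 2 of them processed pseudogenes), Fdft1 (2, 1 of them a processed pseudogene), and Acaca, Elovl6 and Scd2 (1 each). The remaining match of Fdps, Gm43738, is a protein-coding gene on the same strand that overlaps 26.7% of the exon bases of Fdps. The match of Scd2 is Scd1, another of the 30 genes. The remaining matches of Idi1 (Gm48574) and Fdft1 (Ctsb) are genes that overlap them on the opposite strand. Hmgcs1 had only 1 match, Gm48342, which likewise overlaps it on the opposite strand and is no copy elsewhere. How the authors' counting treated such reads is not given in the sources used here.

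**Figure D1:**
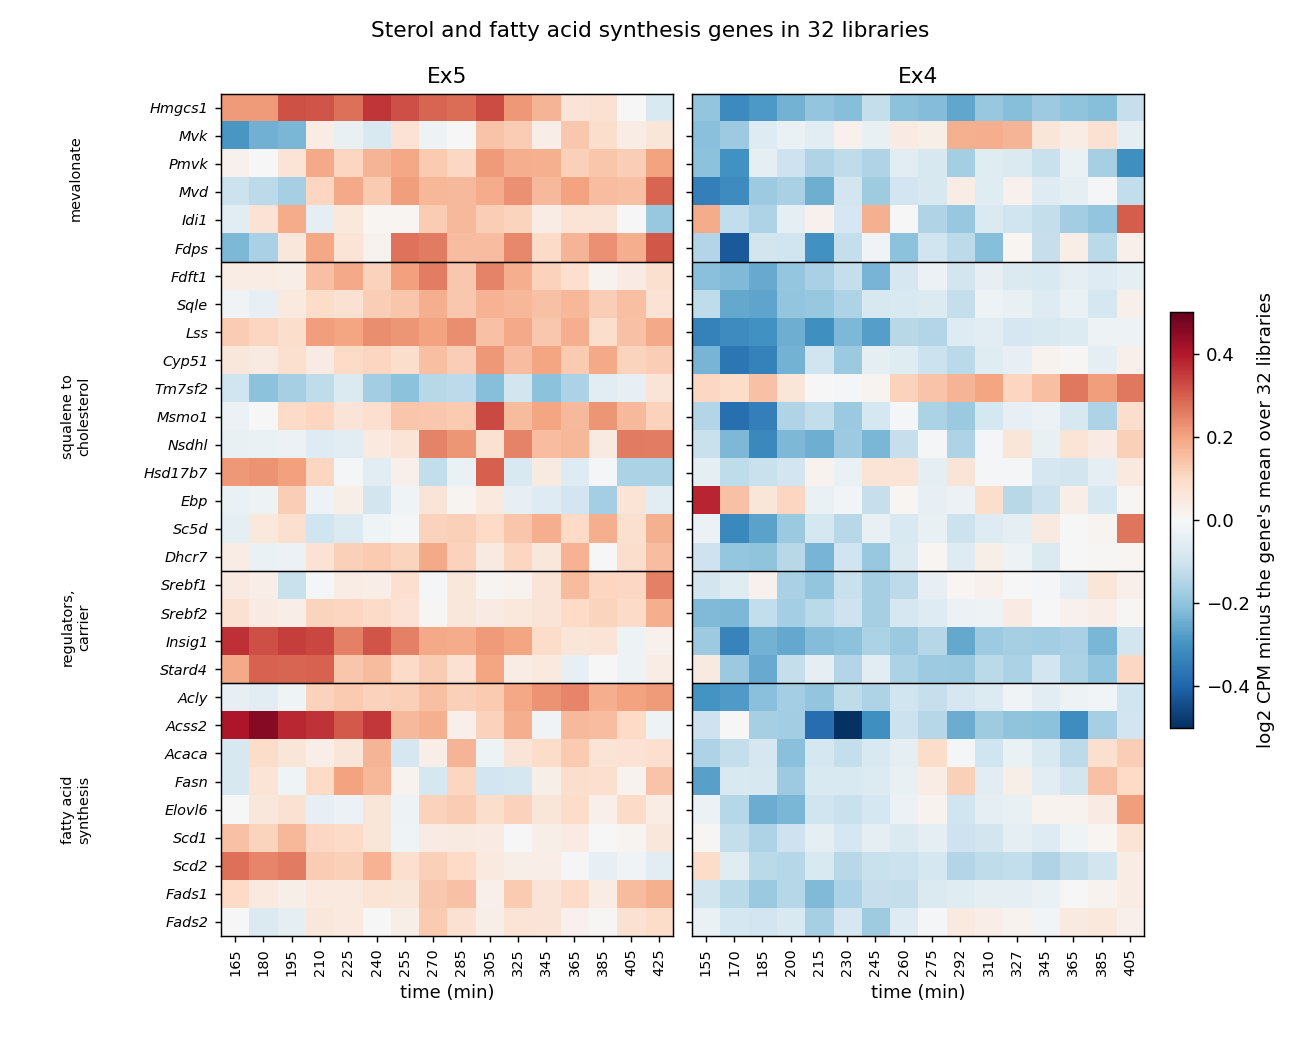
Each gene (down the page, in pathway order) in each library (time in min along the axis) as log2 CPM minus the gene's mean over all 32 libraries, with Ex5 left and Ex4 right and colours limited to 0.5 either way. Insig1 and Acss2 are darkest red in the early Ex5 libraries, and Hmgcs1 is darkest red at 240 min in Ex5. Tm7sf2 has the opposite colours to most other genes, and many genes turn from blue to pale across Ex4.

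Transcripts of both pathways were higher in Ex5 than in Ex4 at the shared time of 285 min. Of the 30 genes, 25 were higher and 1 was lower in Ex5 (edgeR quasi-likelihood test, adjusted p under 0.05 over all tested genes), while 55.2% of all tested genes were called, 27.0% higher and 28.2% lower. The median difference was 0.17 on the log2 scale over the 30 genes and -0.00364 over all tested genes. All 9 fatty acid genes, all 4 regulators or carriers, 4 of 6 mevalonate genes and 8 of 11 genes from squalene to cholesterol were higher. For 6 genes every Ex5 library lay above every Ex4 library and for 0 below, which held for 1.61% and 1.92% of tested genes. Since the RNA is from whole dishes, a change in the share of cells and a change in the amount of transcript per cell cannot be told apart. Of the 8 PSM markers 6 were higher and 2 lower in Ex5, and all 3 tested epiblast markers and 2 of 3 tested neural markers were lower; their part in the difference was not tested.

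Among the mevalonate genes, Hmgcs1 (ENSMUSG00000093930.2, chromosome 13, 119690379 to 119708260 in mm10, plus strand) differed most. It had 672 CPM in the lowest, 841 in the median and 908 in the highest Ex5 library, and 567, 613 and 654 CPM in those of Ex4. All Ex5 libraries lay above all Ex4 libraries, and the level was 1.34-fold higher in Ex5 (log2 0.42 ± 0.02, SE, 32 libraries, adjusted p = 6.46e-18). Phosphomevalonate kinase (Pmvk), which adds a phosphate to phosphomevalonate, ranged from 61.9 to 71.6 CPM in Ex5 and from 49.9 to 60.4 CPM in Ex4, again without overlap (0.27 ± 0.03, adjusted p = 1.18e-11). Mvd was 0.23 ± 0.03 higher (edgeR adjusted p = 1.26e-08), and Fdps 0.25 ± 0.04 (edgeR adjusted p = 9.76e-07), each with 13 of 16 Ex5 libraries above the highest Ex4 library. Mevalonate kinase (Mvk), which acts just before Pmvk, did not pass the test. It ranged from 57.2 to 77.1 CPM (median 71.6) in Ex5 and from 60.4 to 79.2 CPM (median 71.1) in Ex4, a difference of -0.03 ± 0.03. The isopentenyl diphosphate isomerase Idi1 differed by 0.09 ± 0.04 (edgeR adjusted p = 0.0621).

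In the stretch from squalene to cholesterol, 3 genes had no overlap between the courses. Lanosterol synthase (Lss, chromosome 10, 76531588 to 76557138, plus strand), which closes the sterol rings, had 254, 272 and 281 CPM in the lowest, median and highest Ex5 library and 189, 217 and 235 CPM in those of Ex4. Its level was 0.32 ± 0.02 higher in Ex5 (edgeR adjusted p = 1.15e-17). Squalene synthase (Fdft1) ranged from 176 to 208 CPM in Ex5 and from 146 to 171 CPM in Ex4 (0.23 ± 0.02 higher, edgeR adjusted p = 7.28e-11). Cyp51 ranged from 361 to 408 CPM in Ex5 and from 273 to 358 CPM in Ex4 (0.22 ± 0.02 higher, edgeR adjusted p = 5.79e-12). The methylsterol monooxygenase Msmo1 was 0.24 ± 0.03 higher (edgeR adjusted p = 8.13e-10), with 12 of 16 Ex5 libraries above all of Ex4. Squalene epoxidase (Sqle), a rate-limiting step of the pathway, was 0.21 ± 0.02 higher, with 14 of 16 Ex5 libraries above all of Ex4. The dehydrogenase Nsdhl (0.18 ± 0.03), the 7-dehydrocholesterol reductase Dhcr7 (0.16 ± 0.02) and the lathosterol oxidase Sc5d (0.12 ± 0.03) were higher by smaller amounts.

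Tm7sf2 (chromosome 19, 6062821 to 6068373, minus strand), a sterol reductase, went the other way. It had 45.1, 47.6 and 54.6 CPM in the lowest, median and highest Ex5 library and 52.1, 57.1 and 62.7 CPM in those of Ex4. The ranges touched, and the level was 0.26 ± 0.02 lower in Ex5 (log2 -0.26, edgeR adjusted p = 3.27e-12). Of its exon bases, 12.1% overlap the neighbouring gene Vps51 on the same strand. The ketoreductase Hsd17b7 (0.05 ± 0.03) and the sterol isomerase Ebp (-0.03 ± 0.03) did not pass the test, and their ranges overlapped.

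The INSIG gene of the set (chromosome 5, 28071363 to 28078662, plus strand) had the smallest p of the 30. Insig1, which encodes the retention protein for the SREBP complex and is itself an SREBP target, had 189, 221 and 247 CPM in the lowest, median and highest Ex5 library and 152, 169 and 180 CPM in those of Ex4. The courses did not overlap, and the level was 1.31-fold higher in Ex5 (0.39 ± 0.02, edgeR adjusted p = 3.26e-21). The sterol carrier Stard4, which moves cholesterol between membranes, was 0.24 ± 0.03 higher (edgeR adjusted p = 1.06e-09), with 8 of 16 Ex5 libraries above all of Ex4. Srebf2 ranged from 517 to 583 CPM in Ex5 and from 440.2 to 529 CPM in Ex4 (0.14 ± 0.02 higher, edgeR adjusted p = 8.16e-10). Srebf1 ranged from 142 to 183 CPM in Ex5 and from 134 to 160.1 CPM in Ex4, and was 0.10 ± 0.02 higher (edgeR adjusted p = 0.000201). The differences of the SREBP genes were thus smaller than those of Insig1 and Hmgcs1.

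In fatty acid synthesis the acetyl-CoA suppliers differed most. Acss2 (chromosome 2, 155517948 to 155585724, plus strand), which makes acetyl-CoA from acetate, had 13.8, 15.8 and 19.2 CPM in the lowest, median and highest Ex5 library and 9.96, 12.4 and 14.1 CPM in those of Ex4. It was 1.33-fold higher in Ex5 (0.41 ± 0.04, edgeR adjusted p = 5.48e-12), with 14 of 16 Ex5 libraries above all of Ex4. Acly ranged from 1163 to 1429 CPM in Ex5 and from 980.2 to 1194 CPM in Ex4, a difference of 0.24 ± 0.02 (edgeR adjusted p = 4.01e-15). The chain-building enzymes were closer between the courses. Acetyl-CoA carboxylase (Acaca), which makes malonyl-CoA, was 0.11 ± 0.02 higher, and the elongase Elovl6 0.09 ± 0.02. Fasn ranged from 2231 to 2741 CPM in Ex5 and from 1976 to 2640 CPM in Ex4, overlapped almost throughout, and was 0.07 ± 0.03 higher (edgeR adjusted p = 0.0462). That call was lost when any 1 of 18 of the 32 libraries was left out, with adjusted p up to 0.104. Of the desaturases, Scd2 was 0.19 ± 0.02 higher, Fads1 0.16 ± 0.02, Scd1 0.11 ± 0.02 and Fads2 0.06 ± 0.02.

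**Figure D2:**
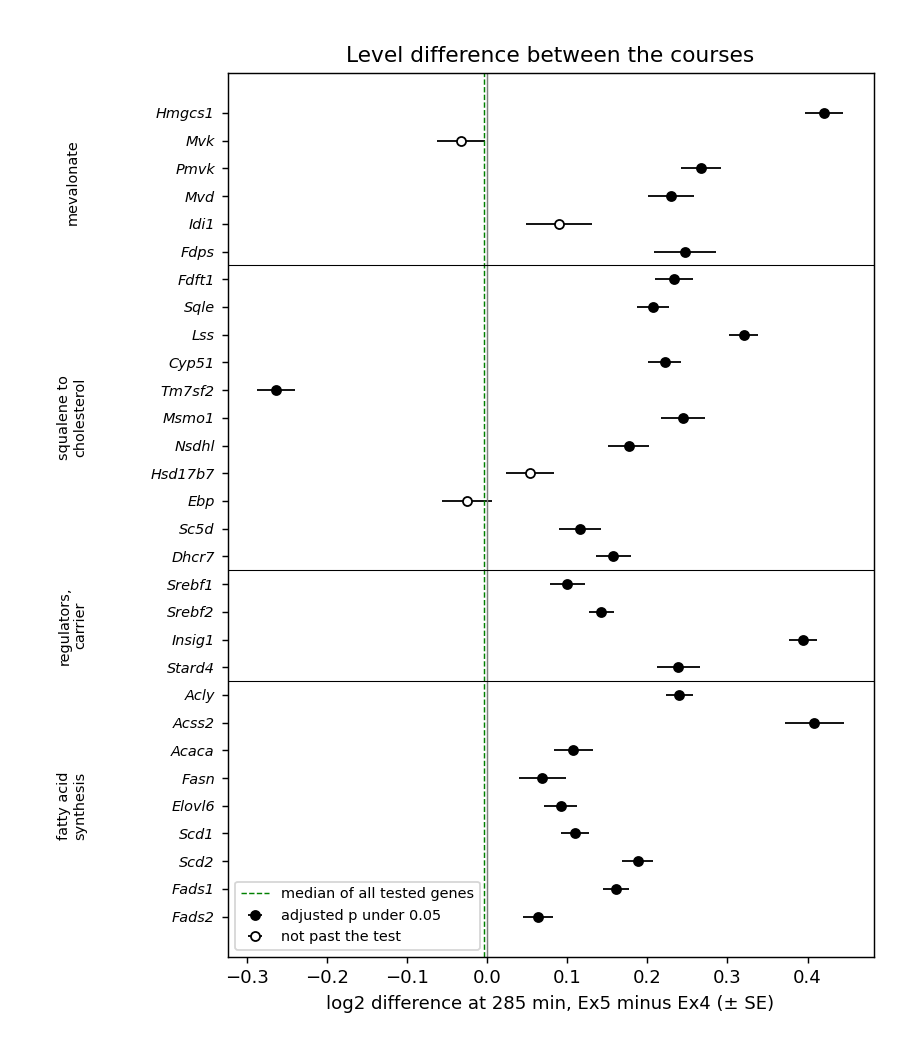
Fitted log2 difference in level at 285 min, Ex5 minus Ex4, for each gene (points, with bars for ± 1 SE; filled where the adjusted p is under 0.05, open otherwise) and the median over all tested genes (dashed line, at -0.00364). Of the filled points 25 lie right of zero and that of Tm7sf2, at -0.26, lies left.

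The courses moved toward each other with time. Compared at 165 min and at 405 min, the first and last minutes that both courses cover (times chosen after the data had been seen), 25 genes were higher and 1 lower in Ex5 at 165 min, and 15 were higher and 1 lower at 405 min. Among all tested genes 21.3% were higher and 21.9% lower at 165 min, and 15.3% were higher and 16.2% lower at 405 min. The median difference over the 30 genes was 0.22 at 165 min and 0.10 at 405 min, against -0.00603 at 165 min and -0.000617 at 405 min over all tested genes.

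Insig1 was 1.53-fold higher in Ex5 at 165 min (0.62 ± 0.03) and 1.13-fold higher at 405 min (0.17 ± 0.03). Hmgcs1 was 0.61 ± 0.04 higher at 165 min and 0.24 ± 0.05 at 405 min, and Acss2 0.58 ± 0.06 and 0.23 ± 0.07. Lss was 0.48 ± 0.03 higher at 165 min and 0.16 ± 0.04 at 405 min. For these 4 genes the difference still passed the test at 405 min, with adjusted p between 8.67e-05 for Insig1 and 0.0117 for Acss2 (edgeR). Srebf2 (0.24 ± 0.03 at 165 min, 0.04 ± 0.03 at 405 min) and Scd2 (0.31 ± 0.03 and 0.06 ± 0.04) no longer passed it there. Other genes held their distance. Acly differed by 0.25 ± 0.03 at 165 min and 0.23 ± 0.03 at 405 min, Mvd by 0.23 ± 0.05 and 0.23 ± 0.06, and Pmvk by 0.23 ± 0.04 and 0.30 ± 0.05. Fasn was 0.18 ± 0.05 higher at 165 min and had a difference of -0.04 ± 0.06 at 405 min, which did not pass the test (edgeR adjusted p = 0.646).

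**Figure D3:**
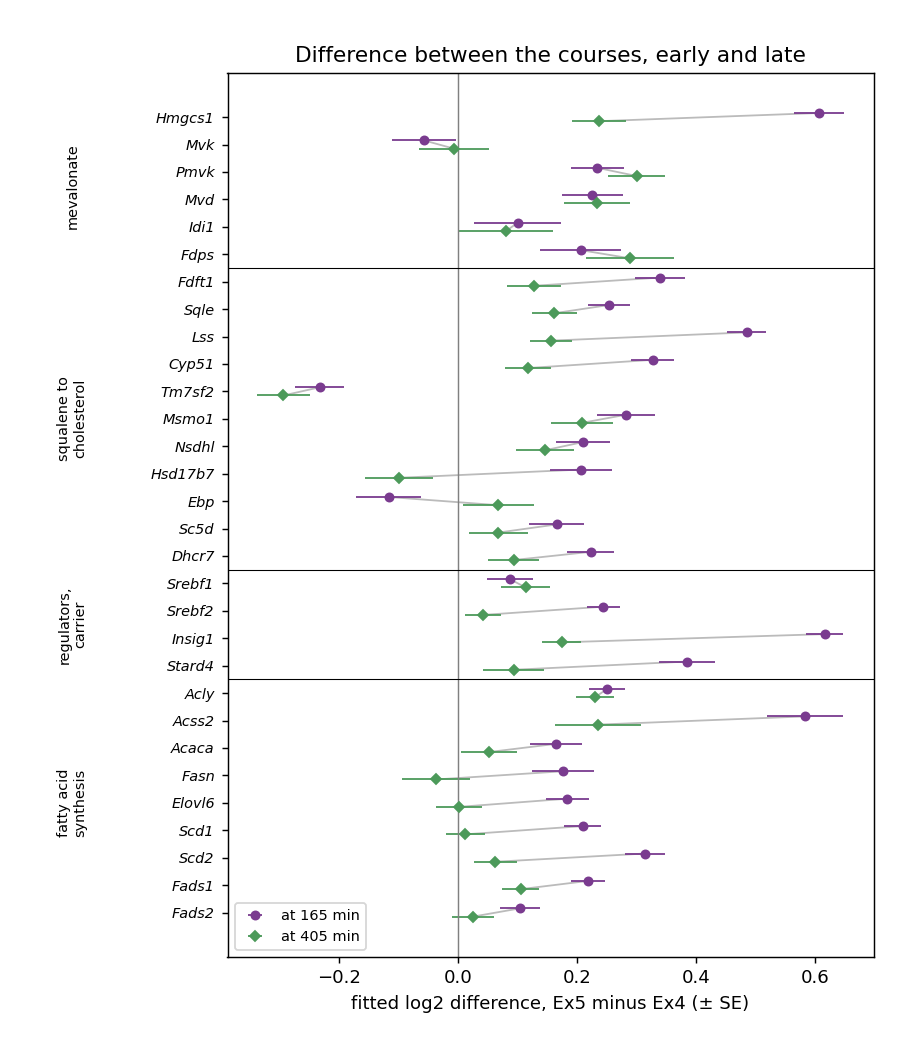
Fitted log2 difference, Ex5 minus Ex4, at 165 min (circles) and 405 min (diamonds), with bars for ± 1 SE and a grey line joining the times of 1 gene. The diamond lies well left of the circle for Insig1 (0.62 and 0.17), Hmgcs1 and Lss, and close to it for Acly (0.25 and 0.23).

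The change in distance was also tested as a difference in slope. In 12 of the 30 genes the slope was lower in Ex5 than in Ex4 and in 0 it was higher, whereas 9.03% of tested genes had a lower and 6.61% a higher slope in Ex5. The median slope difference was -0.05 log2 per 100 min over the 30 genes, against 5.89e-06 over all tested genes. Insig1 had the largest, -0.18 ± 0.02 (edgeR adjusted p = 4.16e-07). Hmgcs1 followed with -0.15 ± 0.03 (edgeR adjusted p = 0.000636), then Acss2 (-0.15 ± 0.05) and Lss (-0.14 ± 0.02, edgeR adjusted p = 0.000115). Hsd17b7 (-0.13 ± 0.04), Stard4 (-0.12 ± 0.03), Scd2 (-0.10 ± 0.02), Fdft1 (-0.09 ± 0.03), Cyp51 (-0.09 ± 0.03), Srebf2 (-0.08 ± 0.02), Scd1 (-0.08 ± 0.02) and Elovl6 (-0.08 ± 0.03) also passed.

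The calls for Insig1, Hmgcs1, Lss, Srebf2, Scd1 and Scd2 remained whichever library was left out. Those of Fdft1 and Elovl6 were lost without any 1 of 18 and of 13 libraries, with adjusted p up to 0.0937 and 0.144. Stard4 was lost without the Ex4 library at 405 min (-0.08, edgeR adjusted p = 0.0793) and Hsd17b7 without the Ex5 library at 425 min (-0.11, edgeR adjusted p = 0.0545). Cyp51 was lost without the Ex5 library at 425 min or the Ex4 library at 170.0 min (-0.07, edgeR adjusted p = 0.0523). Acss2 was lost without the Ex5 library at 180.0 or 425 min, or the Ex4 library at 385 or 405 min (-0.13, edgeR adjusted p = 0.0913 without that at 405 min). Without the Ex5 library at 425 min 7 genes passed. Of the PSM markers 4 of 8 also had a lower slope in Ex5 and 4 were not called, and their part in these differences was not tested.

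Read course by course, most of the genes rose in Ex4, while in Ex5 the calls were near the shares of all tested genes. In Ex5 10 genes rose and 7 fell, while 51.0% of tested genes were called there, 25.9% rising and 25.1% falling. In Ex4 19 genes rose and 1 fell, against 17.2% of tested genes that rose and 15.2% that fell. The median slope over the 30 genes was 0.03 log2 per 100 min in Ex5 and 0.08 in Ex4, against 0.000382 in Ex5 and -0.00262 in Ex4 over all tested genes. In 9 genes the slope passed upward in both courses, and in 0 downward in both. The share of all tested genes passing in both courses was not computed, so these counts cannot be set against it.

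The 7 genes that fell in Ex5 were Hmgcs1, Hsd17b7, Insig1, Stard4, Acss2, Scd1 and Scd2, and all 7 are among those with a lower slope in Ex5. Insig1 averaged 243 ± 3.05 CPM in the first 4 Ex5 libraries, 222 ± 4.68 CPM in libraries 7 to 10 and 196 ± 5.81 CPM in the last 4 (SD, n = 4 each). In Ex4 it averaged 161 ± 7.09, 169 ± 5.86 and 171 ± 6.67 CPM over the same stretches. The Ex5 values came down toward those of Ex4, with slopes of -0.15 ± 0.02 in Ex5 and 0.04 ± 0.02 in Ex4. Scd2 averaged 3622 ± 166, 3286 ± 67.1 and 3031 ± 45.9 CPM over the 3 stretches of Ex5 and 2968 ± 229, 2858 ± 48.3 and 2928 ± 172 CPM over those of Ex4. Acss2 averaged 18.5 ± 0.523, 15.2 ± 0.713 and 15.0 ± 0.886 CPM in Ex5 and 13.0 ± 0.756, 12.2 ± 0.783 and 12.3 ± 0.751 CPM in Ex4. In Ex5 the values of Acss2 were lower by the middle stretch and close to that at the end.

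Hmgcs1 kept its level in Ex5 before it fell. It averaged 852 ± 34.6 CPM in the first 4 Ex5 libraries, 875 ± 13.9 CPM in libraries 7 to 10 and 717 ± 34.2 CPM in the last 4, and 592 ± 22.3, 617 ± 25.6 and 626 ± 19.3 CPM in Ex4. Lss rose in Ex4, and its slope in Ex5 did not pass the test. It averaged 262 ± 9.77, 275 ± 7.33 and 266 ± 8.41 CPM in Ex5 and 194 ± 5.31, 215 ± 12.7 and 231 ± 4.41 CPM in Ex4, with slopes of 0.002 ± 0.017 in Ex5 and 0.14 ± 0.02 in Ex4. Cyp51 (0.04 ± 0.02 in Ex5, 0.12 ± 0.02 in Ex4), Srebf2 (0.03 ± 0.01 in Ex5, 0.11 ± 0.02 in Ex4) and Elovl6 (0.02 ± 0.02 in Ex5, 0.10 ± 0.02 in Ex4) had the same form, called in Ex4 alone.

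**Figure D4:**
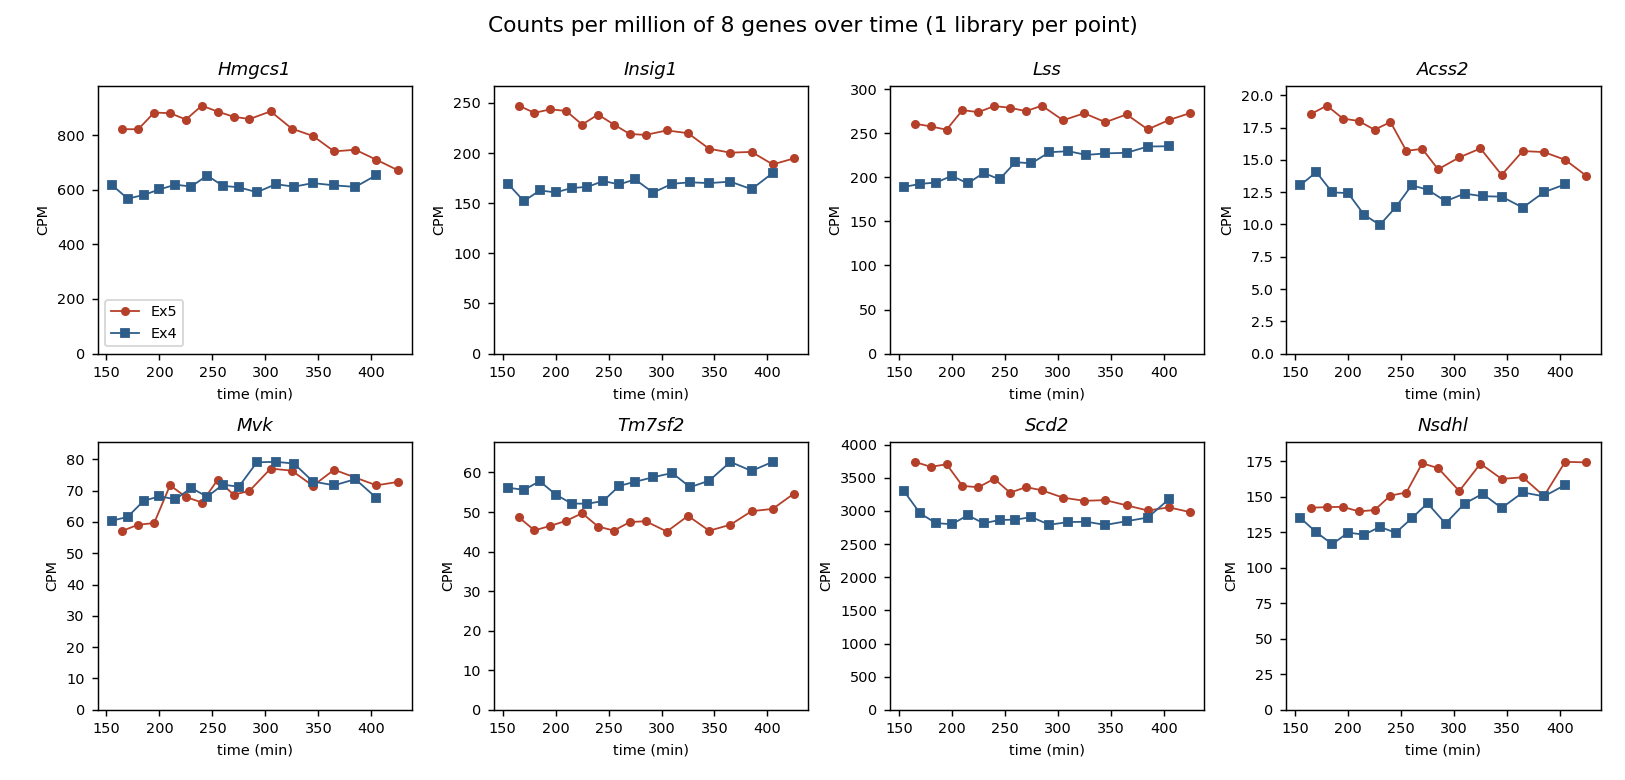
CPM (vertical axis, from 0) of 8 genes against time in min, with 1 library per point, for Ex5 (circles) and Ex4 (squares). Hmgcs1, Insig1 and Scd2 come down toward the Ex4 line late in Ex5, Lss rises toward the Ex5 line in Ex4, Mvk follows nearly the same line in both courses, and Tm7sf2 lies lower in Ex5.

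The 9 genes that rose in both courses were Mvk, Mvd, Sqle, Tm7sf2, Msmo1, Nsdhl, Sc5d, Srebf1 and Acly. Nsdhl, which removes a C4 methyl group from sterols together with Msmo1 and Hsd17b7, rose by 0.11 ± 0.02 log2 per 100 min in Ex5 and 0.14 ± 0.02 in Ex4. It averaged 142 ± 1.47 CPM in the first 4 and 166 ± 11.4 CPM in the last 4 Ex5 libraries, and 125 ± 7.51 and 151 ± 6.77 CPM in Ex4. Mvk rose by 0.13 ± 0.03 in Ex5 and 0.11 ± 0.03 in Ex4, Mvd by 0.11 ± 0.03 in each, and Acly by 0.09 ± 0.02 in Ex5 and 0.10 ± 0.02 in Ex4. No slope difference between the courses passed the test for these 4 genes; the differences were -0.03 ± 0.03 for Nsdhl, 0.02 ± 0.04 for Mvk, 0.003 ± 0.037 for Mvd and -0.008 ± 0.022 for Acly. The Ex5 calls of Sqle, Tm7sf2 and Msmo1 were lost when any 1 of 6 (Sqle), 7 (Tm7sf2) or 5 libraries (Msmo1) was left out, with edgeR adjusted p up to 0.164, 0.282 and 0.144 in that order. Pmvk and Idi1 were called in neither course.

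Averaged over both courses, 19 genes rose and 6 fell, while 53.3% of tested genes were called, 26.9% rising and 26.3% falling. The median was 0.06 log2 per 100 min, against -0.0011 over all tested genes. The steepest rises were those of Nsdhl (0.13 ± 0.02, edgeR adjusted p = 1.53e-07), Mvk (0.12 ± 0.02), Mvd (0.11 ± 0.02), Sc5d (0.10 ± 0.02) and Acly (0.10 ± 0.01, edgeR adjusted p = 6.10e-09). The 6 that fell were Acss2 and Scd2 (-0.07 each), Ebp (-0.06), and Hmgcs1, Insig1 and Stard4 (-0.05 each). Ebp alone fell in Ex4 (-0.10 ± 0.03), a call that was lost without the Ex4 library at 155 min (-0.05, edgeR adjusted p = 0.163). Without that library 3 genes fell on average over both courses.

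**Figure D5:**
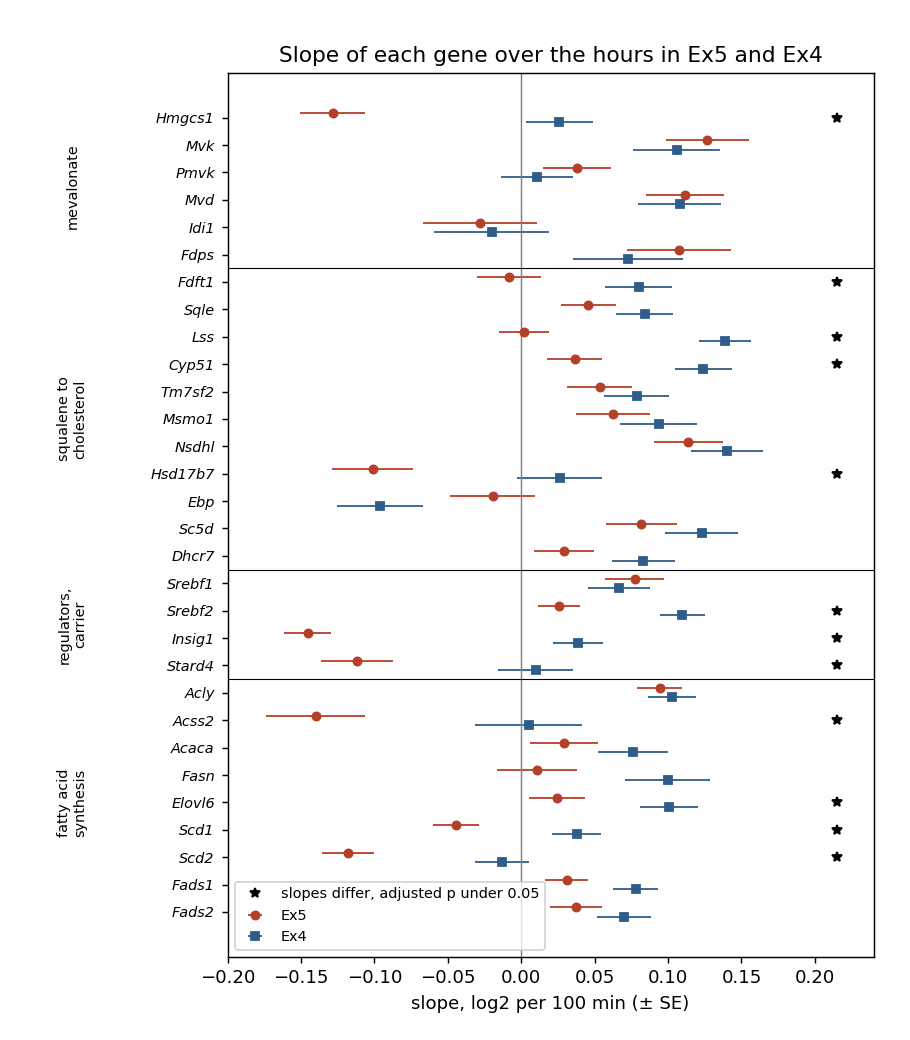
Slope of each gene in log2 per 100 min in Ex5 (circles) and Ex4 (squares), with bars for ± 1 SE and a star where the slopes differ at an adjusted p under 0.05. In all 12 starred genes the Ex5 circle lies left of the Ex4 square, and in Mvk, Mvd, Nsdhl and Acly both lie right of zero.

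A straight line did not describe all of the genes. A quadratic time term per course passed the test in 9 of 30 genes, against 20.4% of tested genes. In 7 of them the term averaged over the courses was below 0 and in 2 above 0. The shares of tested genes were 11.2% and 9.25%. A term below 0 is a downward bend, as where a rise slows or a fall steepens. The test was of both terms together and not of their average. In Hmgcs1 the term was -0.13 in Ex5 and 4.11e-05 in Ex4, in log2 per 100 min squared (edgeR adjusted p = 0.000117). In Fdft1 it was -0.11 in Ex5 and -0.04 in Ex4 (edgeR adjusted p = 0.00158), and in Sqle -0.09 in Ex5 and -0.02 in Ex4 (edgeR adjusted p = 0.00636). Mvk (-0.11 in Ex5, -0.14 in Ex4, edgeR adjusted p = 9.61e-05) and Mvd (-0.10 in each, edgeR adjusted p = 0.00521) bent in both courses. Acly and Pmvk had the same sign in both, and Ebp and Scd2 were the 2 with an average above 0. In Ebp the terms differed in sign (0.12 in Ex4, -0.02 in Ex5). The calls of Pmvk and Ebp were lost without any 1 of 12 (Pmvk) or 9 libraries (Ebp), with edgeR adjusted p up to 0.216 and 0.323. That of Scd2 was lost without either of 2 libraries and that of Acly without 1. The count above 0 depended on the settings: it was 4 with DESeq2 or without cosine terms, 5 with a period of 180 min, and 1 with no filter or a period of 120 min. Without the Ex4 library at 405 min 5 genes passed, and without that library or that at 155 min no average above 0 remained (0 genes).

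None of the 30 genes cycled with Hes7 by the test. The count was 0 of 30, which is near the share of 1.36% of tested genes (edgeR quasi-likelihood test, adjusted p under 0.05). It was also 0 with DESeq2, and 3 genes had an unadjusted p under 0.05. The fitted trough-to-peak amplitude had a median of 0.06 on the log2 scale (range 0.006 to 0.12), against 0.07 over all tested genes. Hes7, whose own values set the period and phase, had an amplitude of 2.01-fold in the same fit. The 3 genes were Elovl6 (1.06-fold, edgeR adjusted p = 0.266), Acly (1.05-fold, edgeR adjusted p = 0.333) and Scd2 (1.05-fold, edgeR adjusted p = 0.369). A difference in rhythm between the courses passed in 0 of the 30 genes with edgeR and with DESeq2. It passed in 0% of all tested genes with edgeR. An unadjusted p under 0.05 was reached by 5 of the 30 genes. For neither rhythm test was the share of all tested genes at an unadjusted p under 0.05 computed.

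After level and slope of each course had been removed, the remaining variation was compared between genes. Over the 32 libraries the 136 pairs of sterol enzymes had a median Pearson r of 0.22, with 94 pairs above 0. The 36 pairs of fatty acid genes had a median of 0.14, and the 153 pairs of a sterol enzyme with a fatty acid gene a median of 0.00775. All these values come from the same libraries and share their depth and scaling. No median over pairs of all tested genes was computed to set beside them. In Ex4 the mean standardised deviation of the 17 sterol enzymes was lowest at 170.0 min (-0.909 SD) and highest at 155 min (0.811 SD). In Ex5 it was lowest at 180.0 min (-0.843 SD) and highest at 305 min (0.842 SD). Each sterol enzyme was compared with the mean of the other sterol enzymes, and every other gene with the mean of all 17. Sqle followed most closely (r = 0.86), then Fdft1 (0.73), Hmgcs1 (0.70) and Msmo1 (0.62). Taken by course, r was 0.84 in Ex5 and 0.88 in Ex4 for Sqle, and 0.92 and 0.42 for Fdft1. For Hmgcs1 it was 0.84 in Ex5 and 0.49 in Ex4, and for Msmo1 0.61 and 0.67. The lowest values were those of Srebf1 (-0.33), Fasn (-0.31), Tm7sf2 (-0.30), Acss2 (-0.23) and Srebf2 (-0.22). Outside the 30 genes the 5 closest, picked by this r, were Gng2 (0.81), Rdh11 (0.80), Ccna2 (0.79), Ptpn9 (0.78) and Ran (0.78). By course, their r was 0.94 in Ex5 and 0.59 in Ex4 for Gng2, and 0.92 and 0.53 for Ran. For Rdh11 it was 0.84 and 0.77, for Ccna2 0.79 and 0.81, and for Ptpn9 0.75 and 0.82. Curvature had not been removed, so a shared bend over time also adds to r.

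Genes around the pathways were read from lists. Of 10 further sterol genes 6 were higher and 0 lower in Ex5, against 27.0% and 28.2% of all tested genes. A lower slope in Ex5 was called for 5 of them and a higher one for 0, against 9.03% and 6.61% of all tested genes. The phosphatidate phosphatase Lpin1 was 0.21 ± 0.03 higher, with a slope difference of -0.20 ± 0.04. Acat2, which makes acetoacetyl-CoA, was 0.18 ± 0.02 higher and rose in both courses (slope difference 0.02 ± 0.02).

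Of 11 SREBP processing genes 1 was higher and 5 were lower in Ex5, against 27.0% of all tested genes higher and 28.2% lower, with a median of -0.05. Mbtps2, the site-2 protease that frees SREBP from the membrane, was lower in Ex5 (-0.18 ± 0.03, edgeR adjusted p = 5.44e-06). The NF-Y subunits Nfya and Nfyb did not pass the level test (0.04 ± 0.03 and 0.05 ± 0.02), and both fell over the hours (-0.14 ± 0.02 and -0.15 ± 0.02 log2 per 100 min). Of 5 tested genes of sterol export 2 were higher and 2 lower in Ex5. Of 10 genes of sterol uptake, trafficking and esterification 4 were higher and 2 lower, among them the lipoprotein receptor Vldlr (0.52 ± 0.05 higher).

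Of 15 tested genes of fatty acid elongation and activation 8 were higher and 1 lower in Ex5, with a median of 0.07. Malic enzyme Me1, which supplies NADPH, had 28.5, 39.9 and 44.9 CPM in the lowest, median and highest Ex5 library and 24.5, 29.3 and 34.8 CPM in those of Ex4. It was 0.42 ± 0.02 higher in Ex5 and fell over the hours (-0.20 ± 0.02 log2 per 100 min), with a slope difference of -0.004 ± 0.032. Of 11 tested genes of fatty acid oxidation 3 were higher and 3 lower in Ex5, near the 27.0% and 28.2% of all tested genes. A lower slope in Ex5 was called for 1 of the 11, Hadha (-0.09 ± 0.02), against 9.03% of all tested genes.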

How the data were processed

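Raw counts of reads, listed by gene symbol, were deposited for 32 libraries, which were made from 200 ng total RNA with a strand-specific mRNA kit per the labels' protocols. Per the submitters' processing notes the authors used HTSeq 0.6.1, HISAT2 2.1.0, cutadapt 1.14 and bcl2fastq 2.17.1.14, and build mm10. Which annotation and strand setting HTSeq was given is not stated there, and overlapping genes may therefore share reads.

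Scaling used TMM factors in edgeR 4.0.16 (R 4.3.3). The 11768 genes that reached 1 CPM in 16 or more libraries were fitted with edgeR's quasi-likelihood model. The model had a level and a linear slope for each course (time centred at 285 min) and a sine and cosine of the Hes7 phase common to both, at a period of 135 min. The phase came from a least-squares fit of Hes7, with the period searched between 90 and 240 min. Contrasts are Ex5 minus Ex4, slopes are log2 per 100 min, and adjusted p-values follow Benjamini-Hochberg over all tested genes, with a threshold of 0.05. Further fits added terms by course for rhythm and for squared time. Standard errors (SE) derive from the F statistic, and those of rhythm leave out the error of the Hes7 phase. Depth per library was 16.1 to 29.5 M counts. The fits were tested on simulated counts.

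All 30 genes are named. The members, gene lists and tests were chosen with earlier results of these data known. From each further list came up to 4 genes with the smallest trend p past the test and 1 not past it, and 5 genes by likeness to the sterol enzymes among those with at least 5 CPM on average, leaving out predicted gene models. Some genes of these lists are not reported here by name. Positions and exon lengths are from GENCODE M21 (GRCm38). Near-identical copies were sought among its transcripts. Alternatives were another scaling, DESeq2 1.42.0, other filters, periods and time terms, the span shared by the courses, a replicate block and each library left out. No column of the table was left unused (0).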

Additional observations from a re-analysis of the deposited data

Results flagged for a closer look

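In 12 genes the slope over time differed between the courses by the test of the difference itself, and in all 12 it was lower in Ex5 than in Ex4. On the log2 scale per 100 min the differences, Ex5 minus Ex4, were -0.18 for Insig1, -0.15 for Hmgcs1, -0.15 for Acss2, -0.14 for Lss and -0.13 for Hsd17b7. They were -0.12 for Stard4, -0.10 for Scd2, -0.088 for Fdft1 and -0.088 for Cyp51. They were -0.084 for Srebf2, -0.082 for Scd1 and -0.076 for Elovl6. Their adjusted p-values ran up to 0.0432 for Fdft1 and down to 4.16e-07 for Insig1 (edgeR quasi-likelihood test). The PSM markers Msgn1 (-0.28) and T (-0.20) also had a lower slope in Ex5. Of the 8 PSM markers 4 were called lower and 4 were not called, and 3 of the 8 had a difference above 0. The part of the PSM markers in these differences was not tested.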

How the results depend on the processing

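Counts of the 30 genes called were compared across the alternatives. With the courses compared at 405 min in place of 285 min, 16 genes differed in level (15 higher and 1 lower in Ex5) in place of 26, and the difference of Fasn turned to -0.038 (edgeR adjusted p = 0.646); at 165 min 26 differed. The other scaling, DESeq2, the filters, the periods and the time terms kept every total count within 1.5 times its value. The number with curvature above 0 was 2, but 4 with DESeq2 or without cosine terms, 5 with a period of 180 min, and 1 with no filter or a period of 120 min. With each of the 32 libraries left out in turn, 21 to 28 genes had a trend over both courses, 14 to 18 in Ex5 and 20 to 21 in Ex4. Over the same settings 25 to 27 differed in level, 7 to 12 in slope, 5 to 11 had curvature, and 0 to 0 a rhythm or a rhythm difference. The lowest count for slope came without the Ex5 library at 425 min, and that for curvature without the Ex4 library at 405 min. Between 165 and 405 min, the span of both courses, 10 genes differed in slope and 2 fell on average.

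The time point numbers were not taken to pair the dishes, since not every same-numbered pair had a correlation over 0.1 (14 of 16 did, 0.05 to 0.54; with level and slope removed 6 of 16 did, -0.14 to 0.28). Of 16 libraries 3 were closest to their own number. With the number as a replicate block, 26 genes differed in level and 10 in slope, with Cyp51 (edgeR adjusted p = 0.0571) and Elovl6 (edgeR adjusted p = 0.116) no longer called. With 1 library per time and course, the SE of a slope within 1 course was between 0.0145 (Srebf2 in Ex5) and 0.0391 (Idi1 in Ex4), which limits the slopes that can be called.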
